A study of Mus musculus with 30 samples.

Results

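Transcripts of 9 genes best known from heart muscle were followed in bulk RNA-seq of the descending thoracic aorta: *Myh6*, *Myl7*, *Myl4*, *Tnnt2*, *Tnni3*, *Actc1*, *Sln*, *Nppa* and *Myh7*. They were chosen by name from the 26253 listed genes, with their levels in these libraries already known, so their own levels and fold changes are given as a description, without a test. Of the 9, 7 encode proteins of the sarcomere, the repeating contractile unit of striated muscle. *Sln* (sarcolipin, a small inhibitor of the calcium pump of the sarcoplasmic reticulum) and *Nppa* (the precursor of atrial natriuretic peptide, a hormone released by atrial cardiomyocytes) encode other cardiomyocyte products.

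In a sarcomere, myosin heavy chains with their light chains pull on actin filaments, and the troponin complex makes this pull depend on calcium. Heart and smooth muscle use different genes for most of these parts, and aortic smooth muscle relies on *Myh11* and *Acta2*. In the mouse, *Myh6* is the main myosin heavy chain of the adult heart, *Myl7* and *Myl4* are the light chains of the atria, and *Myh7* is the slow heavy chain used before birth in the ventricles and in slow skeletal muscle.

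The 30 libraries came from male mice with a heterozygous missense mutation in *Col3a1* that substitutes a glycine of type III collagen (VEDS mice, after vascular Ehlers-Danlos syndrome, which such mutations cause), and from control (*Col3a1*+/+) mice. Untreated control, untreated VEDS, hydralazine-treated control and hydralazine-treated VEDS aortas gave 6 libraries each. A further 3 libraries each came from VEDS mice that received bicalutamide (HB) or spironolactone (HS) beside hydralazine. Hydralazine, a vasodilator, was given from birth at 32 mg/kg/day. From day 21, HB mice also received 50 mg/kg/day of bicalutamide, an androgen receptor antagonist, and HS mice 100 mg/kg/day of spironolactone, a mineralocorticoid receptor antagonist. HB and HS aortas were taken on day 60 and the others on day 30 or day 60, and the age of each of those libraries was not used because the labels do not give it. HB and HS were compared with hydralazine-treated VEDS libraries of both ages, so age and the added drug cannot be told apart there. The mice were perfused through the right ventricle, and the segment from the left subclavian artery to the diaphragm was taken. Library totals ran from 5517510 to 8293289 counts. Smooth muscle transcripts were abundant throughout, with *Myh11* between 5212 and 10632 CPM (counts scaled to a common library size with TMM factors) and *Acta2* between 6733 and 12020 CPM. A count of 0 allows a level of up to 0.361 to 0.522 CPM, depending on the library, for counting error only.

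A pair of libraries from different groups held most of the signal. Summed over the 9 genes, control hydralazine replicate 5 stood at 796 CPM and HB replicate 2 at 745 CPM, which is 32.6 and 30.5 times the median of all 30 libraries (24.4 CPM). Control untreated replicate 2 (91.6 CPM) and HB replicate 3 (88.6 CPM) came next, at 3.74 and 3.62 times that median. The other 26 libraries ran from 6.80 to 41.7 CPM without a gap of this size, and they belonged to all 6 groups. Replicate numbers here follow the order of the samples and only name a library. The high libraries were found with and without the *Col3a1* mutation, with and without hydralazine, and with bicalutamide. No HS library was among the 4, and the 3 HS sums were 9.32, 9.58 and 16.1 CPM. In bulk tissue, fewer cells of a type and less RNA per cell cannot be told apart.

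**Figure D1:**
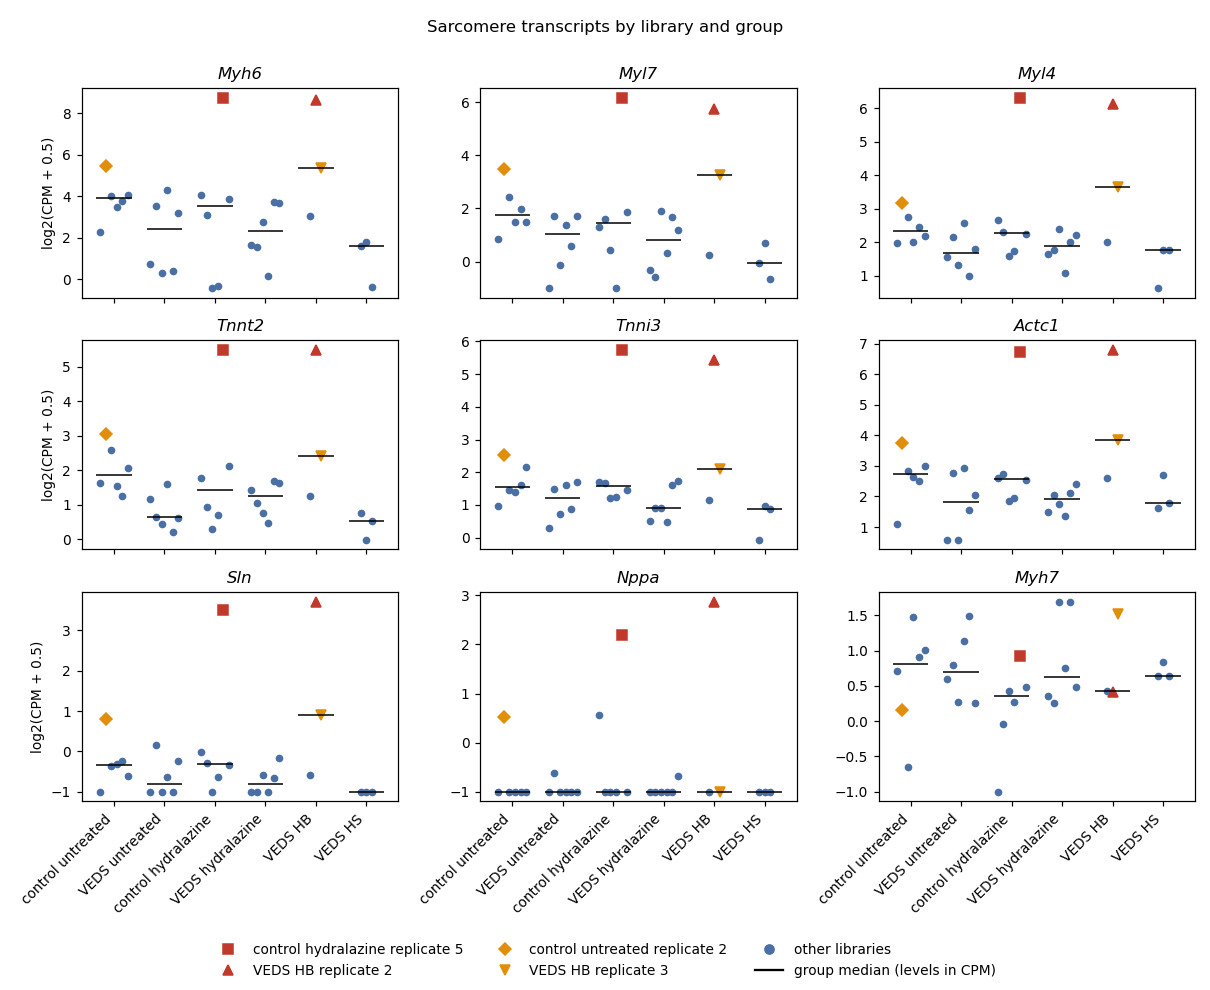
Level of each of the 9 genes as log2(CPM + 0.5) in each library (points) by group, with the group median (line). Control hydralazine replicate 5 and HB replicate 2 lie above the other 28 libraries in every panel except *Myh7*, where they stand at 1.40 and 0.832 CPM.

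Among the heavy chains, *Myh6* had the widest range. Its level was 4.40 CPM in the lowest, 14.5 CPM in the median and 43.5 CPM in the highest untreated control library, and 0.708, 4.93 and 19.4 CPM in untreated VEDS. Hydralazine-treated controls ran from 0.241 CPM through a median of 10.9 CPM to 427 CPM, and hydralazine-treated VEDS libraries from 0.596 CPM through 4.48 CPM to 12.8 CPM. The 3 HB libraries held 7.82, 403 and 41.1 CPM, and the 3 HS libraries 2.55, 2.90 and 0.266 CPM. The groups overlapped in all 7 comparisons, and within hydralazine-treated controls the highest library held 2748 counts while the lowest held 2.

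*Myh7* did not share this pattern. Its level lay between 0 and 2.73 CPM over the 30 libraries, with a median of 1.03 CPM, and it ranked 8th of 30 in control hydralazine replicate 5 and 21st in HB replicate 2. Part of its reads cannot be told from those of *Myh6*: of the 6014 stretches of 100 bases in the longest *Myh6* transcript of GENCODE M21, 687 (11.4%) also occur in *Myh7*, and both genes have fractional expected counts in 15 of 30 libraries. The other 7 genes share no such stretch with another gene, *Acta2* included, and have whole counts in all 30 libraries.

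The atrial light chains followed *Myh6*. *Myl7*, the atrial regulatory light chain, stood at 71.0 CPM in control hydralazine replicate 5 and 53.4 CPM in HB replicate 2, against 10.7 CPM or less in every other library. *Myl4*, the atrial essential light chain, stood at 79.2 and 69.4 CPM in the same libraries and at 1.05 to 12.2 CPM in the others. Group medians outside HB lay between 0.451 and 2.85 CPM for *Myl7* and between 2.70 and 4.53 CPM for *Myl4*. *Myl4* had at least 7 counts in every library, while *Myl7* was at 0 in 2 libraries, so a low level of *Myl4* was found throughout the series.

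The thin filament genes were also highest in these libraries, with HB replicate 2 first for *Tnnt2* and *Actc1* and control hydralazine replicate 5 first for *Tnni3*. *Tnnt2* (cardiac troponin T, which anchors the troponin complex) stood at 44.4 CPM in control hydralazine replicate 5 and 44.6 CPM in HB replicate 2, and at 0.484 to 7.76 CPM elsewhere. *Tnni3* (cardiac troponin I, its inhibitory subunit) stood at 53.3 and 42.3 CPM, and at 0.451 to 5.28 CPM elsewhere. *Actc1* (cardiac alpha-actin) stood at 106 and 111 CPM, and at 0.992 to 14.0 CPM elsewhere.

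In *Actc1* the HB group did not overlap its comparison group. The 3 HB libraries held 5.61, 111 and 14.0 CPM, and the 6 hydralazine-treated VEDS libraries ran from 2.09 CPM through a median of 3.28 CPM to 4.76 CPM. It was the single member without overlap in any of the 7 comparisons. Of all genes tested in HB, 3.68% lay higher and 4.58% lower without overlap, and in HS 3.05% and 2.71%. With larger groups such genes were rarer: 0.123% higher and 0.0231% lower in untreated VEDS, 0.0848% and 0.116% in VEDS under hydralazine, 0.0538% and 0.138% for hydralazine in VEDS, and 0.232% and 0.124% for hydralazine in controls. The lowest HB library exceeded the highest hydralazine-treated VEDS library by less than 1 CPM, and *Actc1* was part of the pattern the members were chosen for, so nothing is read from this count.

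*Sln* and *Nppa* were close to the limit of detection outside the high libraries. *Sln* stood at 10.9 CPM in control hydralazine replicate 5 and 12.6 CPM in HB replicate 2, was above 0 in 19 of 30 libraries and reached 1.39 CPM elsewhere. All 3 HS libraries had no *Sln* count. *Nppa* stood at 4.04 and 6.82 CPM and had no count in 24 libraries. Among the other 4 libraries with an *Nppa* count, control hydralazine replicate 1 had the highest level, 0.983 CPM, from 6 counts.

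Levels of different genes were compared per transcript length, as TPM with RSEM's 95% credibility interval, which covers counting and read assignment within a library. In control hydralazine replicate 5, *Myl7* led at 116 TPM (interval 106 to 127), followed by *Myl4* at 72.2 TPM (65.9 to 78.5). *Actc1* (53.5 TPM), *Tnni3* (47.8 TPM) and *Myh6* (46.3 TPM) came next, and the intervals of neighbours in this order overlapped. *Tnnt2* stood at 29.3 TPM, *Sln* at 21.8 TPM, *Nppa* at 3.91 TPM and *Myh7* at 0.16 TPM. Thus *Myh6*, the leader in counts, ranked 5th per length.

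HB replicate 2 gave a similar order, from *Myl7* at 88.4 TPM (interval 78.7 to 97.9) and *Myl4* at 63.8 TPM (57.8 to 70.0) to *Myh7* at 0.09 TPM. For *Myl7* the intervals of the 2 libraries did not overlap, while those of the other 8 genes did. *Myh6* made up 53.6% of the members' counts in control hydralazine replicate 5 (exact binomial 95% interval 52.2 to 54.9%) and 54.2% in HB replicate 2 (52.7 to 55.6%). The shares in HB replicate 3 and control untreated replicate 2 were 46.3% (42.4 to 50.3%) and 47.5% (43.4 to 51.6%). In those 2 libraries *Myl7* and *Myl4* again led the order per length, at 15.9 and 11.8 TPM and at 17.8 and 7.83 TPM.

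**Figure D2:**
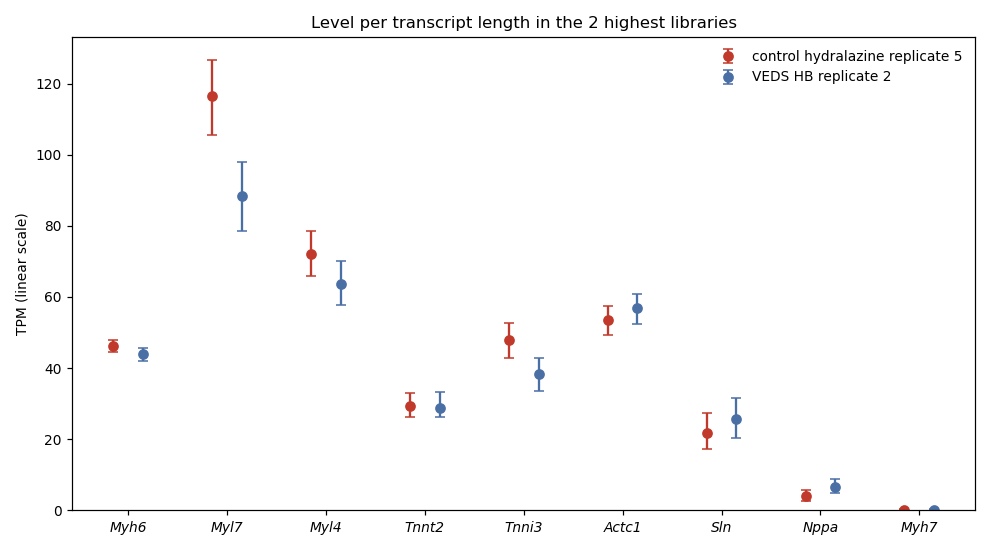
Level per transcript length (TPM, linear axis) of the 9 genes in control hydralazine replicate 5 and HB replicate 2, with RSEM's 95% credibility intervals as bars. *Myl7* (116 and 88.4 TPM) and *Myl4* (72.2 and 63.8 TPM) are highest in both, and *Myh7* (0.16 and 0.09 TPM) is lowest.

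The members other than *Myh7* rose and fell together across libraries, as measured by Pearson's r of log2(CPM + 0.5), a description over libraries that share depth and preparation. Over 30 libraries, the 28 pairs among these 8 genes had r from 0.73 to 0.96. Without control hydralazine replicate 5 and HB replicate 2 the same pairs had r from 0.36 to 0.86, and from 0.58 to 0.86 when *Nppa*, at 0 in most libraries, was set aside. The 8 pairs with *Myh7* had r from -0.19 to 0.09 over 30 libraries and from -0.47 to 0.12 over 28. Without control untreated replicate 2 and HB replicate 3 as well, over 26 libraries, the 28 pairs had r from 0.16 to 0.81 with a median of 0.66, and the pairs with *Myh7* from -0.51 to 0.092. The correlations were thus lower without the high libraries, and remained above 0 for all 28 pairs.

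Promoters of 8 members were found in the RefSeq table (build GRCm38.p6, 250 bases before to 50 after the start of the gene), and *Sln* had no entry. The windows of *Myh6*, *Myl7* and *Actc1* are shown as members that moved together, and that of *Myh7* as the member that did not. They lie at chr14:54966558-54966857, chr11:5898733-5899032, chr2:114052826-114053125 and chr14:54994577-54994876, all on the minus strand. Capitals mark matches, on either strand, to the CArG box (the site of serum response factor), to GATAA (a core of GATA factor sites) and to CATTCC (the MCAT element of muscle genes), and the marked matches do not overlap.
Myh6: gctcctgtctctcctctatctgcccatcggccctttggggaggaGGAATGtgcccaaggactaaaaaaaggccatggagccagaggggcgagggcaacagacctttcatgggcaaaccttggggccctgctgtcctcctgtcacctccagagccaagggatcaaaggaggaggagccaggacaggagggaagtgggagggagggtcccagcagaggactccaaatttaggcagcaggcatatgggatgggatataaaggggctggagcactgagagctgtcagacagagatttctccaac
Myl7: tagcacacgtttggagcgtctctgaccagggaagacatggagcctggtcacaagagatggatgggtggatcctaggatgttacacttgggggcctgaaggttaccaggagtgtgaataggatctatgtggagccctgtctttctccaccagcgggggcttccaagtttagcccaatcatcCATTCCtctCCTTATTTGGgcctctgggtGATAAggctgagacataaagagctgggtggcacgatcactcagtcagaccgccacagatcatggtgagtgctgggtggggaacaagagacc
Actc1: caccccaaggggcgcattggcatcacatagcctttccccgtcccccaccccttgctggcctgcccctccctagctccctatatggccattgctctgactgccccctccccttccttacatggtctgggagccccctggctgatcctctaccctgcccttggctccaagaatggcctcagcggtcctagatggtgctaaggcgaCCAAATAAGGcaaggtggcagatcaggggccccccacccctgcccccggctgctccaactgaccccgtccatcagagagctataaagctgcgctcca
Myh7: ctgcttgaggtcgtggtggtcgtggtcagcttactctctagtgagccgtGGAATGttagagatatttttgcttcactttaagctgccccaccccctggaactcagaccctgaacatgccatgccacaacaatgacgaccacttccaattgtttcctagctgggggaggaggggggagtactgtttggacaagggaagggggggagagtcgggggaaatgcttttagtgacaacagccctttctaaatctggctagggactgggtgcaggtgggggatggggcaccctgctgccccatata
A CArG box stood in the windows of *Myl7* (from position -61) and *Actc1* (from position -47), 2 of the 8 members, and in 1.64% of the 32544 distinct promoter windows of the table. GATAA was found in 4 of 8 members and 25.3% of all windows, CATTCC in 4 of 8 and 14.6%, TATAAA in 3 of 8 and 13.6%, and the E-box CANNTG in 7 of 8 and 72.3%. For the members, only the first listed window was counted, and there *Myh7* held 1 CATTCC match, as *Myh6* did. The second windows listed for *Tnnt2* and *Myh7* held no CArG box, GATAA or CATTCC match. E-box and TATAAA matches are not marked and may overlap others. These letters describe the windows and say nothing about whether a factor was bound.

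Outside the 9 members, the genes whose levels followed them most closely were other striated muscle genes. Among 13526 genes with a mean of at least 1 CPM, the 12 with the highest Pearson's r to the members' mean log2(CPM + 0.5) over 30 libraries included *Ttn*, *Xirp2*, *Mybpc3*, *Myom2*, *Ckmt2*, *Mb*, *Casq2*, *Smyd1*, *Mylk3*, *Pln* and *Ckm*. *Ttn*, the giant spring protein titin, had r = 0.98, and 0.96 without the 2 highest libraries. It stood at 1588 CPM in control hydralazine replicate 5 and 1237 CPM in HB replicate 2, and at 10.2 to 211 CPM in the others, so it gave more counts than any member in the high libraries. *Mybpc3* (cardiac myosin-binding protein C) stood at 21.1 and 13.8 CPM against 3.57 CPM or less, and *Mb* (myoglobin) at 53.6 and 45.6 CPM against 4.97 CPM or less. When the 2 libraries were left out, 7 of the 12 leading genes were shared with the first list, and the rest were *Mrpl13*, *Hmgn1*, *Tbx15*, *Cd164* and *Smim10l2a*, with r from 0.61 to 0.64.

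**Figure D3:**
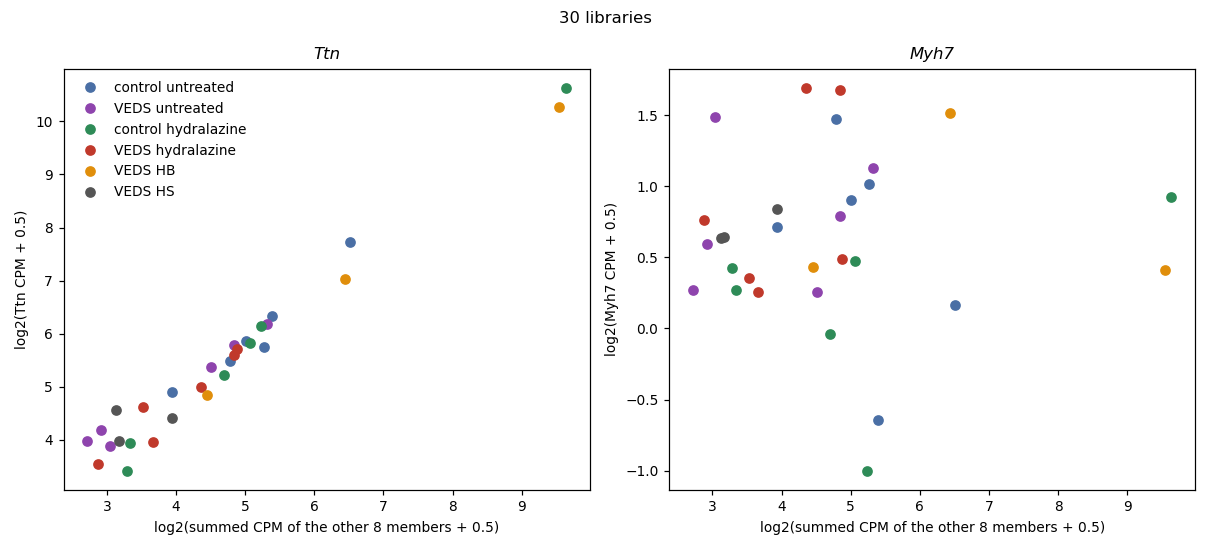
*Ttn* (left) and *Myh7* (right), each as log2(CPM + 0.5), against the summed CPM of the 8 members other than *Myh7* on the same scale, 1 point per library, coloured by group. *Ttn* follows the sum from its lowest level (10.2 CPM) to its highest (1588 CPM), while *Myh7* stays at or below 2.73 CPM along the whole axis.

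Other heart genes were then taken by function. Control hydralazine replicate 5 and HB replicate 2 had been picked out by the members' own levels, so nothing is read from their being highest in 8 of the 9. The lists below were chosen with earlier results of these data known, so the counts in them are a description too. These 2 libraries were also the highest in 8 of 15 sarcomere partners and in 7 of 12 genes of calcium handling and excitation, beside 0.611% of the 19465 genes with a count. In the second list these included *Casq2* (cardiac calsequestrin, the calcium buffer of the sarcoplasmic reticulum), at 22.2 and 17.3 CPM against 2.79 CPM or less, and *Pln* (phospholamban, a calcium pump inhibitor), at 31.8 and 21.1 CPM against 6.21 CPM or less. Several heart genes that smooth muscle also uses were high in every library. *Atp2a2*, the calcium pump, was among the 7 of 12, at 904 and 895 CPM, near but above the 508.7 to 820 CPM of the others. For *Myom1* the high libraries lay within the common range, at 1054 and 1319 CPM against 759 to 1629 CPM. The same held for *Ryr2*, the calcium release channel, at 254 and 263 CPM against 103 to 279 CPM. In striated muscle energy metabolism 4 of 8 genes had these libraries highest, among them *Ckm* (muscle creatine kinase) at 20.3 and 16.8 CPM against 6.88 CPM or less.

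Genes enriched in 1 kind of heart chamber were mostly low, apart from *Stard10* (atrial) and *Hey2* (ventricular), which were abundant in every library. Of 9 atrial-enriched genes, 3 had the 2 libraries highest: *Kcnj3*, a subunit of the acetylcholine-gated potassium channel, at 66 and 38 counts, its partner *Kcnj5* at 26 and 12 counts, and the transcription factor *Tbx5* at 9 and 17 counts (named after their values were seen). *Bmp10*, also atrial-enriched, had no count in either library. Of 4 ventricular-enriched genes, *Myl2*, the ventricular regulatory light chain, had no count in either library and at most 2 elsewhere. *Irx4* had no count in any library, *Myl3*, the ventricular essential light chain, had 5 and 15 counts, and *Hey2* was present in all libraries at 52.5 to 89.9 CPM. *Nkx2-5*, a cardiac transcription factor, had 1 count in each of the 2 libraries and none in the others.

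Markers of other tissues were set beside these values for each full list. No gene of the 11 for lung epithelium, 7 for hepatocytes, 6 for adipocytes, 6 for mesothelium, 7 for endothelium or 3 for red blood cells had the 2 libraries highest. The lung list summed to 5.43 CPM in control hydralazine replicate 5 and 14.1 CPM in HB replicate 2, within the range of the other libraries (4.17 to 92.7 CPM). Most of this sum was 1 gene, *Cyp2f2*, at 3.88 and 12.8 CPM (others 3.16 to 87.3 CPM), so the sum says little about the rest of the list. The surfactant genes *Sftpa1*, *Sftpb* and *Sftpd* were at 0 in both. The hepatocyte list summed to 942 and 654 CPM (others 83.1 to 14785 CPM), the adipocyte list to 1217 and 663 CPM (others 195 to 1858 CPM), the mesothelial list to 18.5 and 3.83 CPM (others 0.708 to 52.3 CPM) and the red blood cell list to 388 and 119 CPM (others 82.7 to 726 CPM). The smooth muscle list summed to 26572 and 30961 CPM (others 19505 to 36712 CPM).

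Skeletal muscle markers were set beside them in the same way. The 15 genes summed to 32.0 CPM in control hydralazine replicate 5, just above the range of the other libraries (11.6 to 30.4 CPM), and to 24.0 CPM in HB replicate 2, within it, and 1 of the 15 had both libraries highest, *Myl1*, an essential light chain, with 75 and 37 counts. *Myh2* and *Myh4*, fast skeletal heavy chains, were at 0 in both, *Acta1* (skeletal alpha-actin) had 1 count in each, and *Actn3* had 2 in each. Among the paralogs of the members, *Tnnt1* (25 and 15 counts) and *Tnnt3* (13 and 12 counts) lay within the range of the other libraries, *Tnni1* and *Myh7b* were at 0 in both libraries, and *Actg2* stood at 163 and 199 CPM against 101 to 206 CPM. In HB as a group, all 7 hepatocyte genes were lower than in hydralazine-treated VEDS (median log2 fold change -2.60, and -2.59 without HB replicate 2). DESeq2 called all 7 lower and edgeR none. The part of other tissues in the members' levels was not tested beyond these values.

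The 7 comparisons of the design were fitted over all genes that passed the expression filter, and each fold change of the members is a description. The comparisons share libraries with one another. Of the 9 members, 5 to 7 passed the filter, and *Nppa* and *Sln* never did, so the medians below leave out the least abundant members. The medians also cover different genes in different comparisons, and can do so in different fits of 1 comparison. *Tnni3* and *Myh7* passed in HB but not in HS, which has the same comparison libraries, so they passed in HB with the help of the HB libraries. In untreated aortas 6 members were tested, since *Myh7*, *Nppa* and *Sln* did not pass. All 6 were lower in VEDS than in control. Their log2 fold changes had a median of -1.09, beside 0.0034 for all 12976 genes tested. *Tnnt2* had -1.57 ± 0.41 (SE), *Myl7* -1.47 ± 0.65 and *Myh6* -1.31 ± 0.73. *Tnnt2* stood at 0.660, 1.06 and 2.53 CPM (lowest, median and highest) in untreated VEDS and at 1.88, 3.13 and 7.76 CPM in untreated controls, and the groups overlapped. Without control untreated replicate 2 the 6 remained lower, with a median of -0.68 and *Tnnt2* at -1.27 ± 0.37. No member and no other gene was called by edgeR at an adjusted p of 0.05 or less (background 0%), 394 reached an unadjusted p under 0.05 (3 members among them), and DESeq2 also called 0.

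In hydralazine-treated aortas the difference rested on control hydralazine replicate 5. All 6 tested members were lower in VEDS (median -2.67, log2), and *Myh6* had -3.60 ± 1.37. Without that library the median was -0.28, with *Myh6* at -0.28 ± 0.87 and *Actc1* at -0.52 ± 0.25, so the size shrank while the 6 signs stayed negative. Over both treatments the median of 6 tested members was -1.89. It was -0.71 without that library, but over 7 members, because *Myh7* then passed the filter. *Myh7* was higher in VEDS (0.64 ± 0.39) and the other 6 were lower. In that fit *Tnnt2* had -0.88 ± 0.34 and *Actc1* -0.71 ± 0.31. Leaving out control untreated replicate 2 as well gave a median of -0.54, again over 7 members with *Myh7* higher. EdgeR called 0 of 12966 genes under hydralazine and 0 of 13407 over both treatments (background 0% in each). An unadjusted p under 0.05 was found for 602 and 496 genes. All 6 tested members were among them in each, and nothing is read from this, since the members were chosen with their levels known. DESeq2 called 1 gene in each (0.00772%, lower, and 0.00746%, higher). It called no member, but it withholds a p where 1 library's count is extreme, and did so for all 6 tested members under hydralazine and for 5 of 6 over both treatments.

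Hydralazine itself showed no common direction. In VEDS aortas 5 members were tested, 3 higher and 2 lower than in untreated aortas (median 0.03, log2), and leaving out single libraries moved that median from -0.24 to 0.34. In controls all 6 tested members were higher with hydralazine, with a median of 1.68 and *Myh6* at 2.16 ± 1.24. Without control hydralazine replicate 5 all 6 were lower instead, with a median of -0.74 and *Myh6* at -1.19 ± 0.78, and without control untreated replicate 2 as well the median was -0.43. The direction in controls was therefore set by 1 library. EdgeR called 0 of 13006 genes in VEDS and 0 of 12951 in controls (background 0% in each), with 589 and 1230 at an unadjusted p under 0.05. DESeq2 called 2 in VEDS (0.0154%, both lower) and 11 in controls (0.0691% higher and 0.0576% lower). No member was among them, and in controls DESeq2 gave no p for any of the 6.

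HB against hydralazine in VEDS had the largest fold changes of the 7 comparisons. Of 7 tested members, 6 were higher in HB, with *Myh6* at 4.54 ± 0.98, *Myl7* at 3.76 ± 0.94, *Actc1* at 3.71 ± 0.74, *Tnni3* at 3.19 ± 0.82, *Tnnt2* at 3.15 ± 0.78 and *Myl4* at 3.09 ± 0.69 (log2), while *Myh7* had -0.13 ± 0.56. Without HB replicate 2 these fell to 1.96, 1.70, 1.58, 0.69, 0.85 and 1.27 in the same order. Without HB replicate 3 as well, the single HB library left had values between -1.13 (*Myl7*) and 0.77 (*Actc1*), a fit in which it is assumed to vary like the other group. The shift of the HB group thus rested on 2 of its 3 libraries. EdgeR called 2 of 13266 genes, both higher (background 0.0151%), and neither was a member: they were *Mup15* and *Sult2a7*, named after their values were seen. An unadjusted p under 0.05 was found for 2051 genes, 6 members included. DESeq2 called 6 members higher, where it called 1.25% of genes higher and 3.08% lower, and without HB replicate 2 it called 1, *Actc1*. Since the rule used these same values, nothing is read from either count.

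HS against hydralazine in VEDS went the other way for most members. *Myh6* stood at 2.55, 2.90 and 0.266 CPM in the 3 HS libraries, all within the range of the 6 hydralazine-treated VEDS libraries or below it (0.596 to 12.8 CPM). Of 5 tested members 4 were lower (median -1.07, log2), with *Myh6* at -1.74 ± 0.91 and *Tnnt2* at -1.07 ± 0.45, while *Actc1* had 0.21 ± 0.34. Without HS replicate 1 the median was -0.35. EdgeR called 0 of 13304 genes (background 0%), with 1805 at an unadjusted p under 0.05, 1 member (*Tnnt2*) among them. DESeq2 called 54 genes (0.0767% higher and 0.337% lower). No member was among those 54, and DESeq2 gave no adjusted p for *Myl7*.

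**Figure D4:**
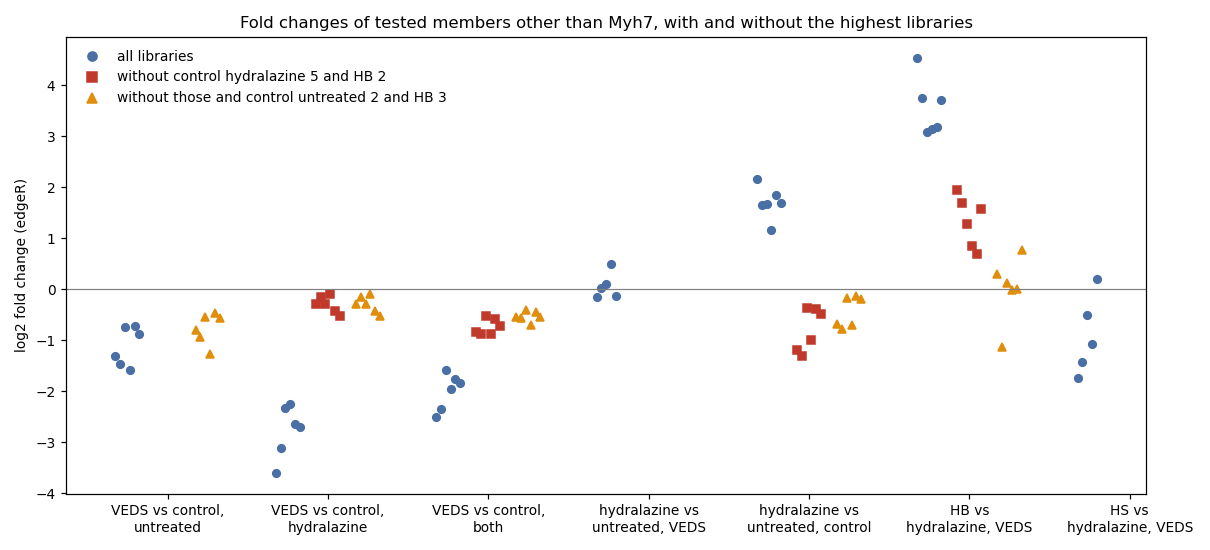
Log2 fold changes from edgeR of the tested members other than *Myh7* in the 7 comparisons, with all libraries (circles), without control hydralazine replicate 5 and HB replicate 2 (squares) and without those and control untreated replicate 2 and HB replicate 3 (triangles). Each point is 1 gene, and squares or triangles are absent where a comparison held none of the libraries. The circles lie farthest from 0 in HB (up to 4.54) and, downwards, in VEDS under hydralazine (to -3.60), and the squares lie closer to 0 in both.

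For the other heart lists edgeR called no gene in any of the 7 comparisons. In HB, all 10 tested sarcomere partners were higher (median 0.95, log2), as were 9 of 10 without HB replicate 2 (median 0.56) and 6 of 10 without HB replicate 3 as well (median 0.23). DESeq2 called 6 of them higher with all libraries, among them *Ttn*, *Myoz2*, *Ldb3*, *Xirp1* and *Cmya5*. Of 7 tested genes of calcium handling all 7 were higher (median 0.40), and DESeq2 called *Pln* and *Atp2a2*. All 7 stayed higher without HB replicate 2 (median 0.32) and without HB replicate 3 as well (median 0.29). A rise in HB was not particular to heart genes. All 10 smooth muscle contractile genes were also higher, with medians of 0.22, 0.27 and 0.32 in the same 3 fits. The 3 atrial-enriched genes that passed the filter were all lower (median -0.65), and DESeq2 called *Stard10* lower. *Stard10* was at 16.8 CPM or more in every library. *Kcnj3*, *Kcnj5* and *Tbx5*, which were highest in control hydralazine replicate 5 and HB replicate 2, did not pass. Nothing is therefore read from the tested genes about the atrial list.

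*Ttn*, a sarcomere partner and no member, showed how far single libraries carried the fold changes. Its log2 fold change in HB was 3.92 ± 0.87, then 1.38 ± 0.59 without HB replicate 2 and -0.11 ± 0.72 without HB replicate 3 as well. In VEDS against control under hydralazine, *Ttn* had -3.28 ± 1.16, and -0.31 ± 0.51 without control hydralazine replicate 5. In untreated aortas it had -1.14 ± 0.53, and -0.56 ± 0.43 without control untreated replicate 2. Each of these differences was smaller without the high library than with it.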

How the data were processed

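Bulk RNA-seq of 30 descending thoracic aortas in 6 groups was analysed, and the labels gave each library's group. Per the labels, the authors prepared total RNA with strand kept, used CASAVA 1.8.4 for base calls and RSEM with the mm39 genome. Expected counts as deposited (97.6% whole within 1e-06) were rounded for tests. The files also hold TPM, normalised for length by the authors, with credibility bounds of that signal. Effective lengths were not printed. Intervals and the limit of 3 counts for a 0 cover counting error only.

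The main test was edgeR 4.0.16 under R 4.3.3: TMM, its default expression filter and the quasi-likelihood test, with 1 fit per comparison on the libraries compared. The Benjamini-Hochberg threshold was 0.05. As an alternative tool, DESeq2 1.42.0 was run. CPM used TMM factors over 30 libraries. The study used EBSeq within ages, which was not run here, and age and extraction batch are not labelled per library. On simulated data with 200 changed genes, edgeR recovered, of those changed 2-fold, 86.6% for VEDS against control untreated, 85.1% under hydralazine and 86.6% over both, 73.1% for hydralazine in VEDS and 83.6% in controls, 70.1% for HB and 62.7% for HS. No 2 replicates had identical values. The members, the 14 lists beside them and the lists' genes were chosen with earlier results of these data known. Genes were named as all members, the 4 most abundant of a list, the 12 most alike, and paralogs of the members, and any other list gene was named after its values were seen. Alternatives were other size factors, DESeq2, no filter, 1 fit of all libraries and leaving out libraries. Leaving out 4 libraries, and DESeq2 without 2, were chosen after the data were seen. Some list genes are not reported here by name.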

Additional observations from a re-analysis of the deposited data

Results flagged for a closer look

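Within a group of 6, the gap from the highest library to its nearest neighbour, as a share of the group's range, passed Dixon's 95% limit in 13 of 36 sets of 1 member and 1 group. Chance passes this limit in about 1 in 20 independent sets, but the members were chosen with these levels known and vary together, so the 13 are a description and are not read against that rate. Control hydralazine replicate 5 accounted for 8 of them, with shares of 0.962 for *Myh6*, 0.956 for *Myl7*, 0.956 for *Myl4*, 0.928 for *Tnnt2*, 0.981 for *Tnni3*, 0.970 for *Actc1*, 0.955 for *Sln* and 0.756 for *Nppa*. Control untreated replicate 2 accounted for 3, with 0.692 for *Myh6*, 0.725 for *Sln* and 1.0 for *Nppa*. The remaining 2 were *Nppa* in VEDS untreated replicate 2 and VEDS hydralazine replicate 6, each 1.0, from 1 count against 5 libraries at 0, where any count gives this value. The HB and HS groups have 3 libraries and were not examined in this way. *Myh7* gave none.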

How the results depend on the processing

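The median member log2 fold change kept its sign under other size factors, DESeq2, no filter and 1 fit of all libraries, except for hydralazine in VEDS, where 0.03 became -0.0046 with DESeq2 and -0.019 without a filter. Larger shifts came with left-out libraries. Leaving out the 2 highest libraries gave -0.28 for VEDS against control under hydralazine, -0.71 over both treatments, -0.74 for hydralazine in controls and 1.27 for HB, and leaving out 4 gave -0.28, -0.54, -0.43 and 0.0077. Leaving out each library in turn gave -2.90 to -0.28, -2.08 to -0.71, -0.74 to 2.04 and 1.27 to 3.73 in the same order, and -1.22 to -0.35 for HS. Genes called under hydralazine numbered 1 with DESeq2, 2 without a filter, 2 in 1 fit of all libraries and 0 to 2 without single libraries. Over both treatments they were 1, 1 (1 fit of all) and 0 to 4. For hydralazine they were 2 in VEDS with DESeq2, and 11 in controls with DESeq2 and 0 to 1 without single libraries. For HB they were 575 with DESeq2 (6 members), 277 with DESeq2 without the 2 libraries (1 member, median 1.27), 1 in 1 fit of all, 1 without the 2 and 1 to 56 without single libraries. For HS they were 54 with DESeq2 and 2 in 1 fit of all. The likeness list shared 7 genes without the 2 libraries. The cause of these changes was not tested. No paired analysis was possible because the labels give no replicate numbers, and those used here follow the order of the samples. Depth limits *Sln* and *Nppa*, which stayed below 3 counts in most libraries, and *Myh7* shares reads with *Myh6*.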

Other observations

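Control untreated replicate 2 came next after the 2 highest libraries in the members' sum. Of the 15 skeletal genes, *Myh4* (19 counts), *Acta1* (13 counts), *Myh2* (5 counts), *Tnni2*, *Mylpf* and *Atp2a1* were highest in that library. *Myh1*, *Tnnt1*, *Tnnt3*, *Tnni1*, *Tnnc2*, *Myl1*, *Actn3*, *Mybpc2* and *Pvalb* were not. *Tnnt1* (1.86 CPM) was below the median of 2.67 CPM of the 28 libraries other than the 2 highest. The 15 genes summed to 30.4 CPM there, of which *Mybpc2*, at 6.12 CPM or more in every library, gave 10.2 CPM. HB replicate 3, the next library in the members' sum, had 0 counts of *Myh4* and *Myh2* and 4 of *Acta1*. Beside 1.24 CPM of *Actn3* and 1.55 CPM of *Atp2a1* in control untreated replicate 2, HB replicate 3 had 1.39 and 1.53 CPM. Its 15 skeletal genes summed to 21.5 CPM, and it had the highest *Myh7* count of the 4 libraries (17.3). These values were noticed after the data were seen, and their source was not tested.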
